A study of Mus musculus with 6 samples.

Results

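Genes that mark zones of the olfactory epithelium, together with neural adhesion molecules, were followed in the nasal sensory sheet of mice that carry the OMP-GFP allele. The 10 genes were Nqo1, Acsm4, Ncam2, Ncam1, L1cam, Alcam, Cntn1, Cntn4, Cdh2 and Pcdh17, known for zones of the epithelium or for neuronal adhesion. Every probe set that the platform annotation gives to 1 of these genes alone was taken, which gave 27 of the 45101 probe sets on the array. They covered 9 of the 10 genes, since no probe set was named for Acsm4 alone, and Acsm4 has no value here. Of the 27 probe sets, 22 passed the filter on low signal described below and were tested, at least 1 for each of the 9 genes.

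The arrays were Affymetrix mouse 430 2.0 chips, 3 from mice homozygous and 3 from mice heterozygous for OMP-GFP. In this line, as background, the coding sequence of Omp (olfactory marker protein, a cytosolic protein of mature olfactory neurons) is exchanged for that of green fluorescent protein. All 6 samples therefore carry the GFP allele, and no wild-type group was analysed here, so loss of Omp and GFP copy number cannot be told apart. The labels give no age, sex or strain background, and do not say whether an RNA came from 1 animal or several, so p-values measure the spread between these samples. The question of the study was how Omp affects gene expression in this tissue.

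The olfactory epithelium is divided into dorsal and ventral zones, whose neurons choose different odorant receptors and send axons to different parts of the olfactory bulb. Neurons of the dorsal zone make the quinone reductase Nqo1, and the acyl-CoA synthetase Acsm4 also marks dorsal epithelium. Neurons of the other zones carry the adhesion molecule Ncam2, also called OCAM, on their axons. Molecules of the immunoglobulin and cadherin families hold axons of like neurons in bundles and take part in sorting them on their way to the bulb.

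Promoter sequence is shown for both zonal markers that were measured and for Cntn1 and Pcdh17. Every probe set of Cntn1 and Pcdh17 was highest on heterozygous 3, as was the Nqo1 probe set. Each sequence is the 150 bases before the gene's start, 5′ to 3′ on the gene's strand, from RefSeq (GRCm38.p6). The windows are chr8:107403206-107403355 on the minus strand for Nqo1 and chr16:81200547-81200696 on the plus strand for Ncam2. They are chr15:92051015-92051164 for Cntn1 and chr14:84443413-84443562 for Pcdh17, both on the plus strand. For Cntn1, the first of 3 starts in the table was used. Capitals mark matches on either strand to the TATA box (TATAAA), the CCAAT box (written CCAAT) or the GC box (spelled GGGCGG), and no base lay in more than 1 match.
Nqo1: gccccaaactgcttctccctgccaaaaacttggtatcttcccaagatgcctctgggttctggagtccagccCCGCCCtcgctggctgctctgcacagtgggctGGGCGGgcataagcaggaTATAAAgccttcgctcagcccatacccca
Ncam2: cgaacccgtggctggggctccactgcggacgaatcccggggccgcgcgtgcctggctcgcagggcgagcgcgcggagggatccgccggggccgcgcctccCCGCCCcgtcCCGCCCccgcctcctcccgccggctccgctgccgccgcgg
Cntn1: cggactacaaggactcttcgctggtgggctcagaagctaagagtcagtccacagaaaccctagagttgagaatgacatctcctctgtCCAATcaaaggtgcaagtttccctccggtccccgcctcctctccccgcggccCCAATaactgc
Pcdh17: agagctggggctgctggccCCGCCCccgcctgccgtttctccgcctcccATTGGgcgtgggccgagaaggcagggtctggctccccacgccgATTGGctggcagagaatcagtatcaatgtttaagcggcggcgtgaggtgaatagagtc

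Nqo1 had a TATA box at positions -29 to -24 from its start, a motif held by 7.57% of 32851 promoter windows of this length. It also had a GC box on each strand, and Ncam2 had a GC box on the minus strand at 2 places. A GC box was found in 28.6% of all windows. Cntn1 had a CCAAT box at -63 to -59 and -11 to -7. Pcdh17 had the same motif on the minus strand at -101 to -97 and -58 to -54, and 24.5% of all windows had it at least at 1 place. Pcdh17 also had a GC box on the minus strand. A match describes the letters only.

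Marker genes of the labelled tissue were present. All 7 mature olfactory neuron markers with a probe set passed the filter, as did all 8 immature neuron markers and all 6 sustentacular cell markers. At Omp probe set 1422199_at the library labelled heterozygous 1 read 26.3, within the 5.7 to 31.3 of the homozygous arrays, against 4664 and 9143 in heterozygous 2 and 3. The other Omp probe set, 1422200_at, was bright in both groups, at 7918.5 to 8774 in homozygous and 7968 to 8709 in heterozygous arrays. The place of either probe set in the gene is not known here, and the label of heterozygous 1 was kept. That library also had a summed signal of 26339 for the 7 ensheathing and Schwann glia markers tested of 11 listed, against 13938 to 17874 on the other arrays. The myelin genes Mbp and Pmp22 were high there, at 7269 against 655 to 1038 and at 4899 against 851 to 1206. S100b read 426 against 339 to 418, and Sox10 and Apod lay within the range of the other arrays. Fabp7 and Npy, which mark olfactory ensheathing glia, were at their lowest there, at 6290.3 and 369. Apod was higher in homozygous arrays without overlap, at 7270 to 7681 against 4134 to 6643, with a limma adjusted p of 0.859. Heterozygous 3 had a summed signal of 5457 for the 5 olfactory bulb and brain neuron markers tested, against 3875 to 4071 elsewhere. Its summed signal for mature neuron markers was the lowest, at 51322, against 60650 to 66899. Omp at 1422200_at did not share this, at 8318.5 there against 7918.5 to 8774 on the other arrays.

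Across the array, no difference between the groups passed adjustment in limma. Values were compared as log2(signal + 38.8), so differences of dim probe sets are understated, over 22514 probe sets. The share past an adjusted p of 0.05 was 0.0%, and 5.73% had an unadjusted p under 0.05. The groups did not overlap at 10.9% of probe sets, 5.93% with homozygous arrays higher and 5.01% with them lower. Of 7 endothelial markers 4 were tested, and all 4 were higher in homozygous arrays, 3 of them without overlap, with a median difference of 0.33. Their summed signal was 1087 to 1203 in homozygous and 801 to 983 in heterozygous arrays. Of the 8 immature neuron markers 7 were lower in homozygous arrays, 3 of them without overlap, with a median difference of -0.08. Of the 7 mature olfactory neuron markers 5 were higher, 0 of them without overlap, with a median difference of 0.10. Among all 11426 genes tested, 5695 were higher and 5731 lower. In each of these marker lists 0 were called in limma and 1 had an unadjusted p under 0.05, and their part in the values below was not tested.

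No difference between homozygous and heterozygous arrays passed the test at any of the 22 zonal and adhesion probe sets. In all, 0 passed an adjusted p of 0.05 in limma and 0 had an unadjusted p under 0.05, against the 0.0% and 5.73% of all probe sets. Adjusted p values lay between 0.889 and 0.998. There were 10 higher and 12 lower in homozygous arrays, and the groups did not overlap at 1 probe set. The median difference was -0.03 on the log2 scale, beside 0.01 for all probe sets tested. The median size of the difference without its sign was 0.07, beside 0.08 for all. In whole tissue, fewer cells of a type and less RNA per cell cannot be told apart.

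**Figure D1:**
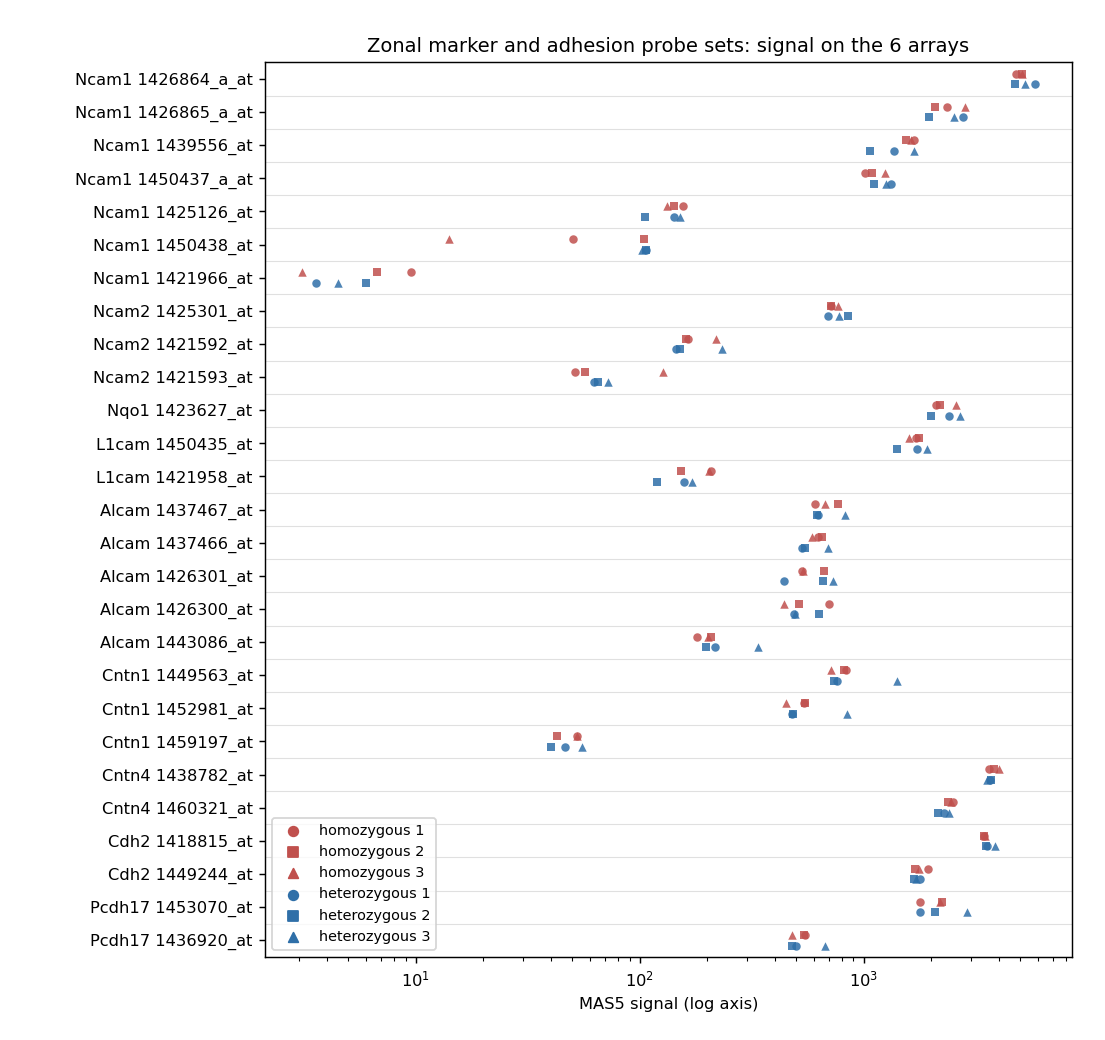
MAS5 signal (log axis) of the 27 probe sets of 9 genes on each of the 6 arrays, homozygous arrays in red and heterozygous in blue, with the marker shape giving the replicate number. Red and blue points overlap at every tested probe set other than Cdh2 1418815_at, and the Cntn1 points of heterozygous 3 lie apart, at 1410 and 840 for 1449563_at and 1452981_at.

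Nqo1, which reduces quinones and marks dorsal neurons, had 1 probe set, 1423627_at. Its signal was 2094, 2202 and 2578 in homozygous 1, 2 and 3, and 2413, 2005 and 2695 in heterozygous 1, 2 and 3. The lowest and the highest value were both heterozygous, so the groups overlapped over the whole homozygous range. The means were 2291 ± 254 and 2371 ± 347 (SD, n = 3 each). The log2 difference, homozygous minus heterozygous, was -0.04 with a 95% interval of -0.29 to 0.21 and a limma adjusted p of 0.985. Without heterozygous 3 it was 0.052.

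Ncam2, the marker of neurons outside the dorsal zone, had 3 probe sets. The brightest, 1425301_at, read 713.2, 713.0 and 765 in homozygous 1 to 3 and 694, 847 and 773 in heterozygous 1 to 3. Again the heterozygous arrays held both extremes. The means were 730.3 ± 29.8 and 771 ± 76.3 (SD, n = 3 each), with a log2 difference of -0.07, an interval of -0.28 to 0.14 and a limma adjusted p of 0.957. Without the library labelled heterozygous 1 the difference was -0.14, and without heterozygous 2 it was -0.0044.

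The second Ncam2 probe set, 1421592_at, read 164, 161 and 219 in homozygous arrays and 145, 152 and 233 in heterozygous arrays. Number 3 was the highest in each group, at 219 and 233. Its difference was 0.04, with an interval of -0.36 to 0.45 and a limma adjusted p of 0.991, and its sign changed without homozygous 3, the library labelled heterozygous 1 or heterozygous 2. The third, 1421593_at, lay under the filter, at 51.4 to 127 over all arrays.

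Whether dorsal and ventral markers varied together from array to array was examined with Nqo1 and the brightest Ncam2 probe set. Over 6 arrays Pearson's r was -0.15 (exact permutation p = 0.814, two-sided) and Spearman's rho was -0.09 (exact permutation p = 0.919, two-sided). Without heterozygous 2 and 3, the arrays farthest from the Nqo1 median, r was 0.55. It was 0.97 within the homozygous and -0.58 within the heterozygous arrays, 3 arrays each. No relation between the markers was shown by these values. This was 1 of 3 planned pairs, and both others needed Acsm4.

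Among 11425 other genes compared over the 6 arrays, the non-members whose log2 values tracked Nqo1 most closely were Chst11, Vwa5b2 and Mbd2, each with r of 0.99. For Ncam2 they were Adgre5, Dhrs7 and Rpl10a, with r of 0.99, 0.99 and 0.98. With 6 arrays and so many genes, these are a description only.

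The wider list of genes known to be graded or zonal in the epithelium, which holds guidance molecules, nuclear factor I genes and retinoid enzymes, was counted next. Of 21 genes listed, 18 had a probe set and all 18 were tested, with 12 higher, 6 lower and 0 called in limma, and 1 had an unadjusted p under 0.05. The median difference was 0.04, beside -0.0004 for all 11426 genes tested, of which 275 were higher and 275 lower at that unadjusted p. The list includes Nqo1 and Ncam2 and pools genes of different zones. Its counts and median therefore cannot show whether the balance between zones changed. Nfix, a nuclear factor I transcription factor, averaged 4578 ± 160 on homozygous against 5233 ± 326 on heterozygous arrays (SD, n = 3 each), without overlap. Its difference was -0.19 with a limma adjusted p of 0.859. The repellent ligand gene Slit3 differed by 0.34 with overlapping groups (limma adjusted p = 0.888), and the glutathione transferase gene Gstm2 by -0.03 (limma adjusted p = 0.991).

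Ncam1 encodes the neural cell adhesion molecule carried by olfactory axons of all zones, made in several transcript forms. Which form each of its 7 probe sets reads is not known here, and 4 were tested. The brightest, 1426864_a_at, read 4800, 5100 and 5113 in homozygous arrays and 5828, 4716 and 5227 in heterozygous arrays. The library labelled heterozygous 1 was the highest and heterozygous 2 the lowest, with all homozygous values between them. The difference was -0.07, with an interval of -0.24 to 0.11 and a limma adjusted p of 0.948. Without the library labelled heterozygous 1, where Mbp and Pmp22 were high, it was 0.011, and the part of glia in it was not tested.

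At 1439556_at, Ncam1 read 1684, 1552 and 1629 in homozygous arrays and 1368, 1066 and 1669 in heterozygous arrays. The heterozygous values were lower on 2 arrays, while heterozygous 3 lay within the homozygous range. This probe set had the lowest p of the 22, with a difference of 0.26, an interval of -0.03 to 0.56 and a limma adjusted p of 0.889. The difference was 0.099 without heterozygous 2 and 0.41 without heterozygous 3, where the limma adjusted p was 0.372.

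The difference had the opposite sign at Ncam1 1426864_a_at and 1450437_a_at, while 1426865_a_at showed almost none. At 1450437_a_at the signal was 1012, 1086 and 1248 in homozygous arrays against 1321, 1107 and 1262 in heterozygous arrays. The difference was -0.14, with an interval of -0.36 to 0.09 and a limma adjusted p of 0.911. It was -0.073 without homozygous 1 and -0.22 without homozygous 3. At 1426865_a_at the signal was 2351, 2076 and 2847 against 2778, 1959 and 2533, a difference of 0.0039 that was -0.038 with arrays shifted to a common median. Number 2 was the lowest array of each group at this probe set. The 3 Ncam1 probe sets under the filter were 1425126_at at 106 to 156, 1450438_at at 14.1 to 107 and 1421966_at at 3.1 to 9.5. At 1450438_at the heterozygous arrays lay within 103 to 107 while the homozygous arrays read 50.2, 104 and 14.1.

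**Figure D2:**
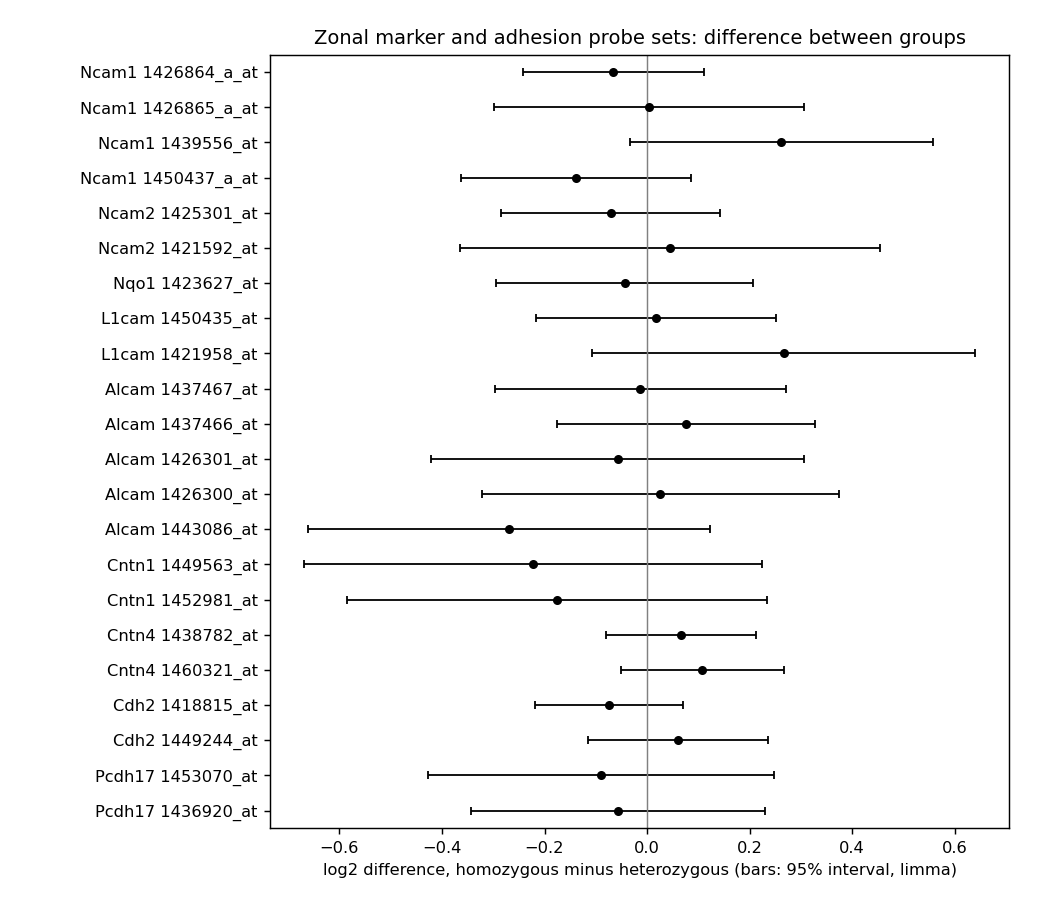
Log2 difference, homozygous minus heterozygous, of each of the 22 tested probe sets (points), with 95% intervals from limma (bars) and a line at no difference. Every interval crosses the line, and the points run from -0.27 at Alcam 1443086_at to 0.27 at L1cam 1421958_at.

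L1cam encodes a transmembrane immunoglobulin-family protein that promotes axon growth and bundling. At 1450435_at it read 1712, 1761 and 1599 in homozygous arrays and 1722, 1413 and 1911 in heterozygous arrays. The heterozygous arrays held the lowest and the highest value. The difference was 0.02, with an interval of -0.22 to 0.25 and a limma adjusted p of 0.994, and it was -0.026 with arrays shifted to a common median. The dimmer probe set 1421958_at read 207, 153 and 203 against 158, 119 and 171. Its difference of 0.27 had an interval of -0.11 to 0.64 and a limma adjusted p of 0.900. Without heterozygous 2, the lowest array, that difference was 0.15.

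Alcam, which encodes an adhesion molecule of growing axons and of leukocyte contacts, had 5 tested probe sets. At 1437467_at, the brightest, it read 606, 767 and 673 in homozygous arrays and 628, 619 and 827 in heterozygous arrays, a difference of -0.01 (limma adjusted p = 0.995). Over all arrays the signal spanned 531 to 696 at 1437466_at, 442 to 729 at 1426301_at and 443 to 701 at 1426300_at, with overlapping groups at each. At 1437466_at the difference was 0.08, and 0.0075 to 0.19 with single arrays left out, the highest being without heterozygous 3 and the lowest without the library labelled heterozygous 1. At 1426301_at it was -0.06 and at 1426300_at 0.03, the last being -0.016 with arrays shifted to a common median. The fifth, 1443086_at, read 180, 208 and 201 in homozygous arrays and 217, 198 and 337 in heterozygous arrays. Heterozygous 3 stood above the other 5 arrays, which spanned 180 to 217. The difference there was -0.27, with an interval of -0.66 to 0.12 and a limma adjusted p of 0.906, and it was -0.064 without heterozygous 3.

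The contactins are immunoglobulin-family proteins anchored to the membrane by a lipid. Cntn1 is widely made by neurons, and Cntn4, also called BIG-2, is made at different levels by olfactory neurons and takes part in sorting their axons. Cntn1 read 835, 813 and 714 in homozygous arrays and 756, 733 and 1410 in heterozygous arrays at 1449563_at. At 1452981_at it read 540.1, 544 and 449 against 480, 482 and 840. Both probe sets were highest in heterozygous 3, and the other 5 arrays spanned 714 to 835 and 449 to 544.

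Over all arrays the Cntn1 differences were -0.22, with an interval of -0.67 to 0.22 (limma adjusted p = 0.916), and -0.18, with an interval of -0.58 to 0.23 (limma adjusted p = 0.925). Without heterozygous 3 they were 0.073 and 0.077. The third Cntn1 probe set, 1459197_at, was under the filter at 40.0 to 55.2.

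Cntn4 had 2 tested probe sets. Its signal at 1438782_at was 3620.0, 3815 and 4025 in homozygous arrays and 3674, 3687 and 3568 in heterozygous arrays. At 1460321_at it was 2514, 2378 and 2459 against 2281, 2145 and 2392. The groups overlapped at both probe sets, with the heterozygous means lower. The differences were 0.07, with an interval of -0.08 to 0.21 (limma adjusted p = 0.924), and 0.11, with an interval of -0.05 to 0.27 (limma adjusted p = 0.909). Both stayed above 0 with each array left out in turn, at 0.029 to 0.10 and 0.068 to 0.14.

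Cdh2 encodes N-cadherin, which binds its like on neighbouring neurons and glia. At 1418815_at it read 3453, 3432 and 3476 in homozygous arrays and 3555, 3518 and 3846 in heterozygous arrays. This was the 1 tested probe set of the 22 whose groups did not overlap, homozygous arrays being lower, where 5.01% of all probe sets did the same. The difference was -0.07, with an interval of -0.22 to 0.07 and a limma adjusted p of 0.916, and the exact permutation p was 0.1 (two-sided), the smallest that 3 against 3 arrays can give. Without heterozygous 3 it was -0.034. The other Cdh2 probe set, 1449244_at, had the opposite sign. It read 1944, 1685 and 1763 against 1782, 1675 and 1704, a difference of 0.06 with an interval of -0.12 to 0.24 (limma adjusted p = 0.957), which was 0.0032 without homozygous 1.

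Pcdh17 encodes a protocadherin that lets axons of like neurons extend along one another. At 1453070_at it read 1789, 2247 and 2196 in homozygous arrays and 1780, 2084 and 2877 in heterozygous arrays. At 1436920_at it read 548, 542 and 479 against 499, 480 and 673. Heterozygous 3 was the highest array at both probe sets. The differences were -0.09, with an interval of -0.43 to 0.25 (limma adjusted p = 0.968), and -0.06, with an interval of -0.34 to 0.23 (limma adjusted p = 0.981). Without heterozygous 3 they were 0.10 and 0.086.

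Values varied between arrays within each group. The median range over the 6 arrays was 0.44 on the log2 scale for the 22 probe sets and 0.36 for all probe sets tested. Heterozygous 3 was the highest array at 12 of the 22, which came from 7 genes, and it was the highest at 20.7% of all probe sets tested. The same array was the lowest at 1 of the 22 and at 23.9% of all. Heterozygous 2 was the lowest at 8 of the 22 and at 18.2% of all. Probe sets of 1 gene share their RNA and partly their target, so these counts describe the arrays and carry no test.

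**Figure D3:**
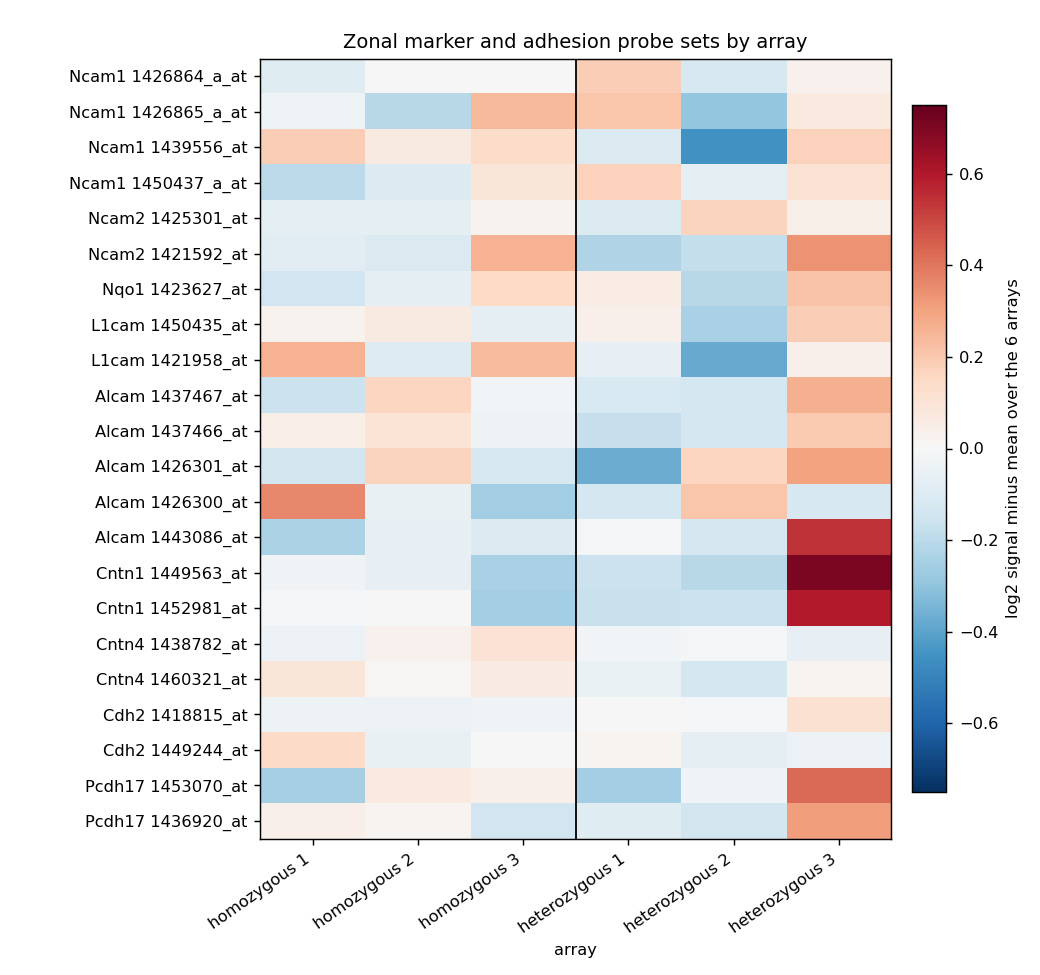
Log2 signal of the 22 tested probe sets on each array, less the probe set's mean over the 6 arrays (colour scale), with homozygous arrays left of the line. The reddest cells are both Cntn1 probe sets and Alcam 1443086_at on heterozygous 3, and Cdh2 1418815_at is the 1 row with every homozygous array below every heterozygous array.

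Bulb and brain neuron markers are set beside these values. Of 10 listed, 5 passed the filter, and Slc17a7, Gad1, Gad2, Tbr1 and Nrgn did not. None was listed at 0. The nuclear protein gene Rbfox3 read 791 in heterozygous 3 and 49.5 to 184 on the other arrays, the synaptic gene Cplx1 read 738 against 140.0 to 308, and the kinase gene Camk2a read 458 against 169 to 217. Syt1, which encodes a synaptic calcium sensor, was also highest there, at 3264 against 2884 to 3123. Eomes, a transcription factor of bulb projection neurons, was lowest there, at 205 against 311 to 510.0. Its groups did not overlap, with homozygous arrays higher, as at 5.93% of all probe sets. The Eomes difference was 0.64, with a limma unadjusted p of 0.00407 and a limma adjusted p of 0.859. The summed signal of the 5 spanned 3949 to 4071 in homozygous and 3875 to 5457 in heterozygous arrays. The summed signal of the 8 immature neuron markers was also highest on heterozygous 3, at 38798.5 against 35284.8 to 38513.8 on the other arrays. With each gene centred on its mean log2 signal, that list averaged 0.05 on heterozygous 3 and 0.06 on the library labelled heterozygous 1. The part of bulb, brain or immature neurons in the Cntn1, Pcdh17 and Alcam values was not tested.

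**Figure D4:**
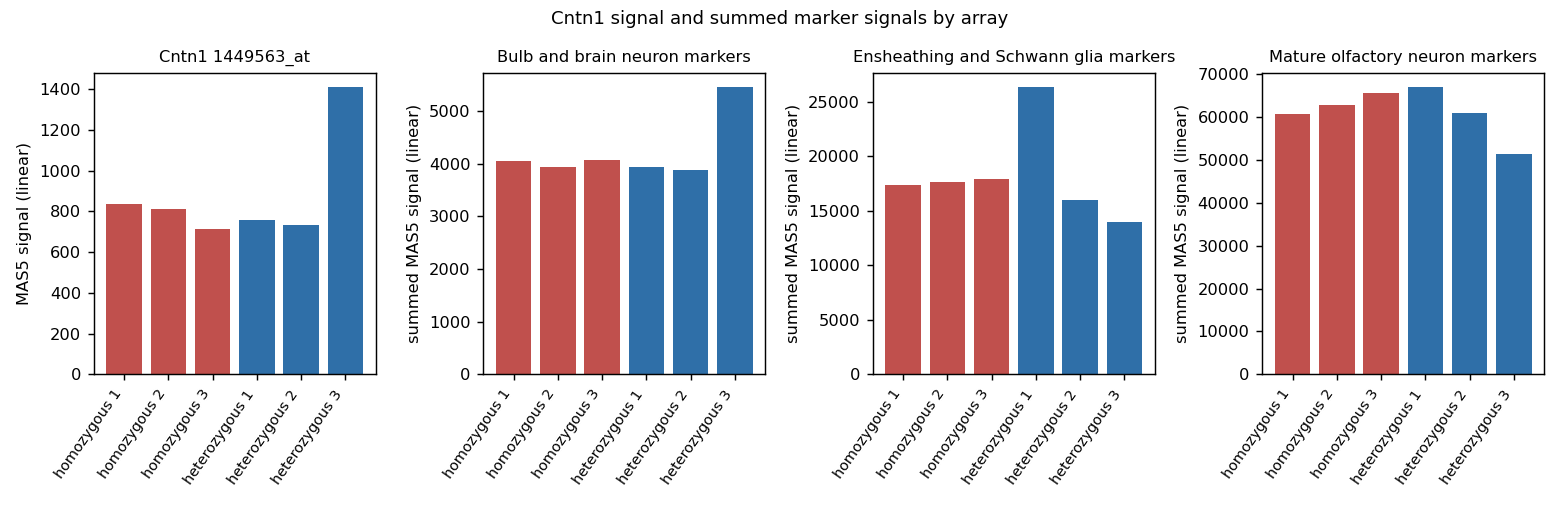
Signal of Cntn1 at 1449563_at and summed signals of the bulb and brain neuron, glia and mature olfactory neuron markers (linear axes from 0), as a bar for each array, homozygous in red and heterozygous in blue. Cntn1 and the bulb and brain markers are highest on heterozygous 3, at 1410 and 5457, the summed glia signal is highest on the library labelled heterozygous 1, at 26339, where Mbp and Pmp22 make up the excess, and the mature neuron markers are lowest on heterozygous 3, at 51322.

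Other adhesion genes were counted for comparison. Of 42 immunoglobulin-family genes listed, 39 had a probe set and 26 were tested, with 9 higher, 17 lower and 0 called in limma. At an unadjusted p under 0.05 there were also 0, and the median difference was -0.05. Of all 11426 genes tested, 5695 were higher and 5731 lower, with 0 called and a median of -0.0004. At that unadjusted p, 275 of them were higher and 275 lower. The immunoglobulin list includes 6 of the genes above. Its summed signal was highest on heterozygous 3, at 37278 against 34608 to 36839 on the other arrays. Chl1 read 608 there against 145 to 195 elsewhere, and Thy1 read 393 against 223 to 254. Bcam, Cntn4, Igsf8 and Nectin3 were lowest on that array. Cadm1, a synaptic adhesion gene, averaged 5643 ± 126 on homozygous against 5348 ± 74.5 on heterozygous arrays (SD, n = 3 each) without overlap, a difference of 0.08 with a limma adjusted p of 0.911. Its relative Cadm3 differed by -0.22 (limma adjusted p = 0.900). Nptn, which encodes neuroplastin, differed by -0.11 (limma adjusted p = 0.904), also without overlap but with homozygous arrays lower.

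Of 43 genes of the cadherin family and its catenin partners, 42 had a probe set and 27 were tested, with 16 higher, 11 lower and 0 called in limma. At an unadjusted p under 0.05 there was 1, beside 275 higher and 275 lower of all 11426 genes tested. The median difference was 0.03, beside -0.0004 for all. Ctnna2, the neuronal alpha catenin that ties cadherins to actin, read 442, 398 and 478 in homozygous arrays and 586, 545 and 537 in heterozygous arrays. The homozygous values were all lower, with a difference of -0.32 ± 0.10 (SE), and the limma adjusted p was 0.859. The giant cadherin gene Fat4 differed by 0.16 (limma adjusted p = 0.900), also without overlap. The bright catenin genes Ctnnb1 and Ctnna1 differed by 0.03 and -0.07, with limma adjusted p values of 0.962 and 0.923.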

How the data were processed

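The deposited intensity values are linear MAS5 signals, as the submitters' processing notes name the method, while its version is not given in the sources used here. Each array had a trimmed mean of 500 (2% off each end), so no further scaling was done. Gene names came from the platform annotation: 34958 probe sets had 1 gene, 932 several and 9211 none. Log2(signal + 38.8), with the lower quartile of all values as offset, was compared with limma 3.58.1 (R 4.3.3) with a trend on intensity and p-values adjusted by Benjamini-Hochberg. Tested were the 22514 probe sets, controls left out, with mean log2 signal at or above the median. For lists, the brightest tested probe set stood for a gene.

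Named were all probe sets of the chosen genes, 3 genes tracking each zonal marker, and up to 4 genes per list (lowest p, highest signal). Other marker and adhesion genes, among them Rbfox3, Cplx1, Pmp22, Npy, Chl1 and Thy1, were named after their values were seen. The genes and lists were chosen with earlier results of these data known. Alternatives were other offsets, scalings, filters and variance models, a replicate block and arrays left out. Leaving out the library labelled heterozygous 1 together with heterozygous 3 was chosen after seeing the data.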

Additional observations from a re-analysis of the deposited data

How the results depend on the processing

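None of the 22 tested zonal and adhesion probe sets passed an adjusted p of 0.05 in limma in any setting, and the lowest was 0.085, for Ncam1 1439556_at with the library labelled heterozygous 1 and heterozygous 3 both left out. The count of probe sets called over the whole array was 0, with 1291 at an unadjusted p under 0.05. It was 1 with the pooled median as offset, 27 with those arrays both left out and 0 to 25 with single arrays left out, 25 being without the library labelled heterozygous 1. Of the 1291, 58.2% were higher in homozygous arrays. With a common median 1240 probe sets had an unadjusted p under 0.05 in limma, and 29.1% of those were higher. After quantile normalization there were 1239, and 50.8% of those were higher. With the replicate number as a block 0 probe sets were called and 1106 had an unadjusted p under 0.05. Deviations of same-numbered arrays correlated at 0.016, -0.116 and -0.047, and no array correlated best with its own number. With so few arrays, these values cannot decide whether same-numbered samples were handled together, and the labels do not say.

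A direction held in every setting for 9 of the 22 probe sets and changed for 13. With a common median the difference was -0.038 for Ncam1 1426865_a_at, -0.026 for L1cam 1450435_at and -0.016 for Alcam 1426300_at. Leaving out both the library labelled heterozygous 1 and heterozygous 3 set the homozygous arrays against heterozygous 2 alone. The difference was then 0.084 for Ncam1 1426864_a_at, 0.0050 for Ncam1 1450437_a_at, 0.18 for Nqo1 and 0.13 for Alcam 1437467_at. It was -0.20 for Alcam 1426300_at, 0.094 and 0.074 for Cntn1 1449563_at and 1452981_at, and 0.11 for Pcdh17 1436920_at. Single arrays left out gave -0.14 to 0.011 for Ncam1 1426864_a_at, -0.14 to 0.11 for 1426865_a_at, -0.075 to 0.22 for Ncam2 1421592_at, -0.16 to 0.052 for Nqo1 and -0.10 to 0.11 for L1cam 1450435_at. For Alcam they gave -0.097 to 0.12 at 1437467_at, -0.26 to 0.078 at 1426301_at and -0.15 to 0.16 at 1426300_at. For Cntn1 they gave -0.38 to 0.073 and -0.30 to 0.077, and for Pcdh17 -0.24 to 0.10 at 1453070_at and -0.14 to 0.086 at 1436920_at. The correlation of Nqo1 with Ncam2 changed from -0.15 to 0.55 without 2 arrays. The cause of these changes was not tested beyond the arrays left out. With 3 arrays a group, the interval of each of the 22 probe sets reached beyond 0.2 on the log2 scale in at least 1 direction.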
